A study of Mus musculus with 12 samples.

Results

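The samples were 4 lines of Ba/F3, a mouse haematopoietic cell line that depends on interleukin-3 (IL-3), carrying the empty MSCV retroviral vector. They were chosen as the 4 MSCV samples of the 12 in the series. The other 8 carry BCR-ABL1 or SFPQ-ABL1 and grow without IL-3, and they were not used here. The vector lines were kept in 0.5 ng/ml of murine IL-3, with no other treatment given, and RNA was taken from exponentially growing cells that had been washed, pelleted and snap frozen. The design text calls the lines of each construct biologically independent. The labels give pro-B cells as the cell type and blood as the tissue, and do not say how long the lines were kept apart or whether each is a clone.

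IL-3 binds a receptor made of a cytokine-specific alpha chain, Il3ra, and a shared beta chain, and signals through JAK2, STAT5, RAS and PI3K to keep haematopoietic cells alive and dividing. In mice the beta chain exists in 2 forms, Csf2rb and Csf2rb2. Early B cells are defined by the transcription factors EBF1 and PAX5, by the RAG recombinase and by the surrogate light chain and CD79 parts of the pre-B receptor. Gata2 belongs to the programme of stem cells, mast cells and megakaryocytes, and Ms4a3 to that of granulocyte-monocyte precursors.

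Each library held between 66040297 (line 4) and 79316348 (line 1) gene counts, so that 1 CPM (counts per 1e6 library counts) stood for at least 66.0 counts. The factors that edgeR gave for differences in library composition lay between 0.993 and 1.005. Protein-coding genes held 86.8% to 87.9% of the counts. Processed pseudogenes held 10.1% to 11.4%, ribosomal protein genes 3.13% to 3.78% and mitochondrially encoded proteins 1.80% to 2.17%. The 100 highest genes held 19.9% to 20.2% of each library. CPM is used below to compare 1 gene between lines, and TPM (transcripts per 1e6), which divides by gene length, to compare genes. Errors are standard deviations (SD) over the 4 lines.

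Of 21974 protein-coding genes, 10211 (46.5%) reached 1 CPM in all 4 lines and 5880 (26.8%) had no count in any line. The median protein-coding gene stood at 0.323 TPM, and the median of those at 1 CPM in all lines at 17.6 TPM. A gene without a count in the summed 297380520 counts lies below 0.0101 CPM, taking 3 counts as the limit. Intervals and limits of this kind cover counting error only. Several families of sensory and epithelial genes were silent in most of their members. No count was seen for 930 of 1135 olfactory receptors, 164 of 210 type 1 and 70 of 121 type 2 vomeronasal receptors, 30 of 35 bitter taste receptors, 37 of 42 beta-defensins and 54 of 57 keratin-associated proteins. 4 olfactory receptors (Olfr1250, Olfr1251, Olfr522 and Olfr814) and 1 type 2 vomeronasal receptor (Vmn2r96) reached 1 CPM in every line, and were picked after their values were seen.

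The label was first set against 4 marker genes. Gata2 (ENSMUSG00000015053, chromosome 6, 88193891 to 88207032, plus strand), a zinc-finger factor of stem, mast and megakaryocyte cells, stood at 1502, 1615, 1600 and 1323 CPM in lines 1 to 4. Its mean of 574 TPM ± 41.1 (SD, n = 4) ranked it 87th among protein-coding genes. Ms4a3 (ENSMUSG00000024681, chromosome 19, 11629496 to 11640851, minus strand), a membrane protein of granulocyte-monocyte precursors, gave 564, 344, 702 and 662 CPM, with line 2 lowest. Cd79a (ENSMUSG00000003379, chromosome 7, 24897381 to 24902197, plus strand), a signalling chain of the B cell receptor, gave 94.5, 97.2, 87.6 and 90.8 CPM. Il3ra (ENSMUSG00000068758, chromosome 14, 14346275 to 14356011, plus strand), the IL-3 binding chain, gave 79.0, 91.2, 84.8 and 82.8 CPM. All 4 markers were therefore present in all 4 lines. Gata2, Cd79a and Il3ra kept within 1.22-fold, and Ms4a3 spread over 2.04-fold.

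The label was then set against a wider list. Among 25 early B cell genes, 4 reached 1 CPM in all lines, where 46.5% of all protein-coding genes did. A low share was not particular to this list: 5 of 20 T and NK cell genes and 4 of 16 stem and progenitor genes reached it. These shares alone do not settle the label. The 4 early B genes were Cd79a, its partner Cd79b (52.3, 53.3, 41.2 and 49.9 CPM), the tetraspanin Cd37 (48.1, 48.8, 57.9 and 52.1 CPM) and the C-type lectin Cd72 (12.8, 13.4, 14.3 and 14.7 CPM). Of the factors that set up the B cell programme, Ebf1 and Pax5 were at the counting limit. Spi1, a factor of myeloid and B cells given below, was not. Summed over all 4 libraries, Ebf1 had 1 count and Pax5 had 6. The recombinase Rag1 had 3 counts and Rag2 had 0. The terminal transferase Dntt had 4 counts, the surrogate light chain gene Igll1 3 and the adaptor Blnk 1. Il7r, the receptor chain that drives pro-B growth in mice, had 0, as did Blk, Pou2af1 and Ms4a1. The median early B gene stood at 0.0113 TPM against 0.323 TPM for all protein-coding genes.

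Antigen receptor constant genes were mostly silent. Of 19 constant genes of immunoglobulins and T cell receptors, 12 had no count, among them Igkc, Ighd and all 3 lambda constant genes listed. The heavy chain constant gene Ighm gave 0.163, 1.05, 1.52 and 1.86 CPM. The 3 that reached 1 CPM were T cell receptor gamma genes on chromosome 13. Tcrg-C4 was steady at 453, 481, 424 and 480 CPM, or 959 TPM ± 56.6 (SD, n = 4). Tcrg-C1 was not, with 670 and 511 CPM in lines 1 and 2 against 203 and 226 CPM in lines 3 and 4. Tcrg-C2 was also highest in line 1 and lowest in line 3, with 121, 113, 68.5 and 76.6 CPM. Tcrg-C1 and Tcrg-C2 share 34.2% and 25.4% of their 50-base words with other genes, so reads between gamma genes may be split unevenly. The alpha and delta constant genes Trac and Trdc had 7 and 3 counts in all, and Trbc1 and Trbc2 had 0.

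Myeloid granule genes were present in part. Of 20 granulocyte and monocyte genes, 6 reached 1 CPM in all lines, where 46.5% of all protein-coding genes did. Prtn3, the neutrophil protease proteinase 3, gave 172, 65.0, 275 and 384 CPM, and Mpo, myeloperoxidase, gave 5.59, 9.69, 8.91 and 19.2 CPM. Cebpe, a factor of late granulocyte precursors, gave 46.2, 80.2, 104 and 82.1 CPM. The lysozyme gene Lyz2 gave 37.9, 20.4, 32.1 and 39.0 CPM, and shares 15.4% of its 50-base words with other genes. Elane, neutrophil elastase, stayed below 1 CPM in every line, at 0.289, 0.160, 0.798 and 0.952. Ctsg, S100a8 and Ly6c2 had no count, and the receptors Csf3r and Fcgr3 had 2 and 3 counts. Calr, counted in this list but made by all cells, carried most of its summed level. Without regard to direction, 4 of the 6 members at 5 CPM (Ms4a3, Mpo, Prtn3 and Cebpe) differed at least 2-fold between lines, where 4.96% of all protein-coding genes at that level did.

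Of 20 mast cell, basophil and eosinophil genes, 8 reached 1 CPM in all lines, a share near the 46.5% of all protein-coding genes. The eosinophil granule genes were among the higher ones: Epx, eosinophil peroxidase, gave 36.7, 179, 147 and 175 CPM, and Prg2, major basic protein, gave 4.12, 44.9, 41.8 and 90.5 CPM. Line 1 was the lowest in both. The receptor chain Il5ra, also on this list, was all but silent. The IgE receptor beta chain Ms4a2 was even between lines, with 13.9, 11.7, 11.4 and 12.4 CPM, while the alpha chain Fcer1a had 1 count in all. The chymase Cma1 was high in line 2 only, with 18.8 CPM there against 2.12, 2.11 and 3.73 CPM in lines 1, 3 and 4. Kit, the receptor that defines mast cells and many progenitors, had no count in 297380520. The proteases Mcpt8, Prss34, Tpsab1 and Tpsb2, which mark basophils and mast cells, also had none.

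**Figure D1:**
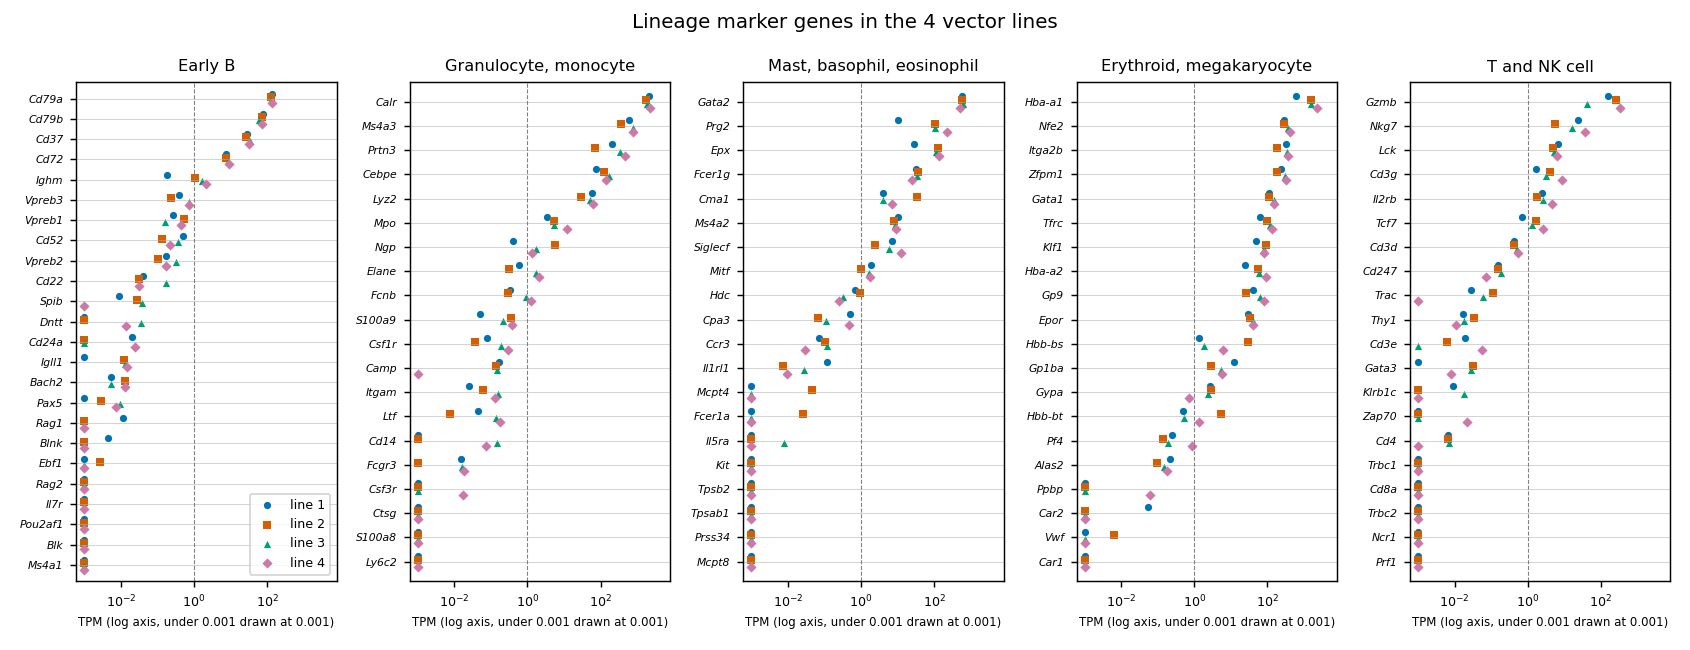
TPM of matched members of 5 lineage lists in the 4 vector lines, 1 point per line, on a log axis with values under 0.001 drawn at 0.001 and a dashed line at 1 TPM. In the early B panel 4 genes stand right of that line in all 4 lines, and the erythroid and megakaryocyte panel holds 11 genes that reached 1 CPM in all 4 lines.

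Of 21 genes of the erythroid and megakaryocyte lineages, 11 reached 1 CPM in all lines, a share near the 46.5% of all protein-coding genes. Nfe2, the megakaryocyte and erythroid leucine-zipper factor, stood at 338 TPM ± 67.0, and Itga2b, the platelet integrin CD41, at 304 TPM ± 80.7 (both SD, n = 4). Zfpm1, the partner of GATA factors known as FOG1, stood at 257 TPM ± 58.7 (SD, n = 4). Gata1 gave 131, 141, 180 and 168 CPM, Klf1 gave 36.2, 72.3, 59.9 and 58.8 CPM, and the erythropoietin receptor Epor gave 28.6, 35.2, 38.6 and 38.6 CPM. The later genes of the same lineages were low. Alas2, the erythroid haem synthesis enzyme, had 55 counts in all, the carbonic anhydrases Car2 and Car1 had 5 and 0, and the platelet genes Pf4 and Ppbp had 35 and 2.

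The globins were unbalanced. Alpha globin (Hba-a1 and Hba-a2 together, since they share 72.3% and 89.3% of their 50-base words) stood at 615, 1648, 1642 and 2346 TPM in lines 1 to 4. Beta globin (Hbb-bs and Hbb-bt together) stood at 1.80, 34.0, 2.33 and 7.28 TPM. In red cell precursors the protein chains are made in near-equal amounts, whereas the values here are of RNA. Here alpha RNA exceeded beta RNA by 343, 48.5, 704 and 322-fold. Hbb-bs also shares 50-base words with other genes, so the size of these ratios is uncertain. Line 1 was lowest for both chains, and line 2 was highest for beta but not for alpha.

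Genes of stem cells, T and NK cells and non-blood cells filled in the picture. The counts below stand beside the 46.5% of all protein-coding genes that reached 1 CPM in all lines. 4 of 16 stem and progenitor genes reached 1 CPM in all lines, and Cd34, Flt3, Procr and Hoxa9 had between 1 and 10 counts in all. Mecom, discussed below, was the highest of them. 5 of 20 T and NK cell genes reached 1 CPM. Gzmb, the cytotoxic granule protease granzyme B, gave 110, 195, 28.2 and 230 CPM, with line 3 apart and low. Cd3g gave 2.69, 6.98, 4.83 and 12.9 CPM, but Cd3e had 11 counts in all and Cd8a and Prf1 had 0. Of 16 genes of fibroblasts, endothelium and epithelium, 3 reached 1 CPM (Vim and Pecam1, which blood cells also make, and Col5a1, treated with the exons below). Epcam, Kdr, Cdh5, Krt18 and Dcn had no count. In bulk RNA fewer cells of a type and less RNA per cell cannot be told apart, and whether the low genes come from few cells was not tested.

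Transcription factors were compared on 1 length-scaled list. Of 44 haematopoietic factors, 28 reached 1 CPM in all lines, where 46.5% of all protein-coding genes did. Gata2 led at 574 TPM, followed by Nfe2 at 338, Lyl1 at 202 ± 40.5, Id1 at 202 ± 48.9, Tal1 at 144 ± 11.7, Gfi1b at 143 ± 31.6, Gata1 at 131 ± 23.2 and Cebpe at 129 ± 40.9 TPM (SD, n = 4). The neighbours Lyl1 and Id1, Tal1 and Gfi1b, and Gata1 and Cebpe lie within each other's SD. Spi1, the factor PU.1 of myeloid and B cells, stood at 77.0 TPM ± 13.4 (SD, n = 4). Cebpa, Gfi1, Meis1, Lef1, Bcl11a and Sox4 had no count in any line. Ikzf1, Ikaros, was low at 2.45, 3.58, 4.44 and 6.05 CPM, while its relative Ikzf2, Helios, gave 322, 321, 424 and 393 CPM. 3 of the 26 factors at 5 CPM differed at least 2-fold between lines, beside 4.96% of all protein-coding genes: Cebpe, Lmo2 (35.8, 22.2, 54.2 and 64.1 CPM) and Erg (43.0, 11.3, 29.8 and 22.9 CPM).

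The highest messages were those of housekeeping and of a few surface and secreted proteins. Leaving out mitochondrial and ribosomal protein genes and predicted loci, Ifitm1, an interferon-inducible membrane protein, led with 12489 TPM ± 1759 (SD, n = 4). It gave 7145, 5822, 6211 and 7328 CPM. Next came the elongation factor Eef1a1 at 6284 TPM ± 516, the actin-binding thymosin Tmsb4x at 5604 ± 603, Eef2 at 3124 ± 110 and Actb at 2491 ± 223. The surface protein Ly6e stood at 2085 TPM ± 401, the galectin Lgals1 at 2228 ± 552, Plac8 at 1994 ± 750 and Ifitm3 at 2043 ± 387. Their SDs overlap, so their order among themselves is not resolved. Endoplasmic reticulum proteins were represented by Calr at 1979 TPM ± 170 and P4hb at 1823 ± 51.0. Rhox5, an X-linked homeobox gene of the reproductive tract and placenta, stood at 1673 TPM ± 158 and gave 603, 740, 551 and 568 CPM. Scin, the actin-severing protein scinderin, stood at 1327 TPM ± 358 with line 4 highest at 2588 CPM. The remaining members of the highest 20 were Aldoa, Hsp90ab1, Pkm, Hba-a1, Txnip, Ldha and Serinc3.

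**Figure D2:**
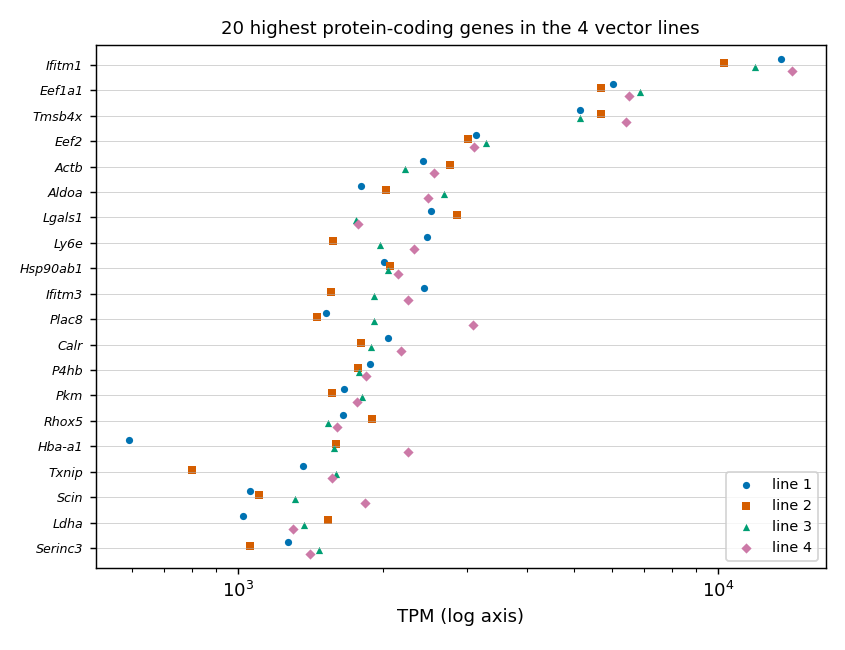
TPM (log axis) of the 20 highest protein-coding genes outside mitochondrial, ribosomal protein and predicted genes, 1 point per vector line. Ifitm1 stands apart at a mean of 12489 TPM, and Hba-a1 shows the widest range between lines, with line 1 lowest.

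A list of interferon-stimulated genes other than Ifitm1 and Ifitm3 was expressed in part. 13 of its 21 genes reached 1 CPM in all lines, against 46.5% of all protein-coding genes, with a median of 6.63 TPM over the 21. Mx1, Ifit1 and Oasl2 had 44, 25 and 50 counts in all, and Rsad2 had 1. Isg15, a ubiquitin-like protein among the most inducible of the group, gave 1.37, 2.10, 1.52 and 1.28 CPM. B2m, the class I light chain, stood at 778 TPM. The class II chains H2-Ab1 and H2-Eb1 had 2 counts each and H2-Aa had 0, while H2-Oa gave 35.5, 42.7, 31.8 and 31 CPM. 10 of 17 genes of antigen presentation reached 1 CPM in all lines, against the same 46.5%. 0 of the 12 interferon-stimulated genes at 5 CPM differed 2-fold between lines, where 4.96% of all protein-coding genes at that level did. For 12 genes, 0 is near that share.

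The IL-3 pathway was nearly complete. Of 36 genes of the receptor, its kinases and their targets, 31 reached 1 CPM in all lines, where 46.5% of all protein-coding genes did. The median over the 36 was 33.7 TPM. The beta chains were high: Csf2rb2 stood at 540 TPM ± 194 and Csf2rb at 410 TPM ± 122, against 58.5 TPM ± 2.34 for the alpha chain Il3ra (SD, n = 4). The ligand-binding chains of the related cytokines were all but silent, with 18 counts in all for Csf2ra (GM-CSF) and 1 for Il5ra. Csf2rb gave 1654, 2060, 948 and 1191 CPM and Csf2rb2 gave 1475, 1856, 755 and 950 CPM. Line 2 was highest and line 3 lowest in both genes, which share 12.3% and 18.9% of their 50-base words with other genes.

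Among the kinases, Jak2 gave 150, 392, 187 and 171 CPM. Line 2 stood 2.61-fold above line 1, and the other 3 lines lay close together. Jak1 was even at 327, 312, 354 and 353 CPM. Stat5b stood at 61.9 TPM and Stat5a at 21.3 TPM. Among the targets, the survival kinase Pim1 gave 963, 808, 1214 and 907 CPM, its relative Pim2 13.8, 17.6, 13.7 and 14.0 CPM, and Pim3 less than 2 CPM in each line. Myc gave 387, 225, 344 and 402 CPM, with line 2 lowest. Mcl1 stood at 230 TPM and Bcl2 at 33.9 TPM. The feedback inhibitors were lower: Cish gave 36.8, 24.1, 31.6 and 30.5 CPM, Socs2 gave 44.2, 47.3, 42.3 and 42.2 CPM, and Socs1 gave 9.02, 5.32, 4.21 and 3.64 CPM. Ccnd3 and Ccnd2 stood at 33.6 and 32.0 TPM, while Ccnd1 stayed below 1 CPM. 6 of the 31 members at 5 CPM differed at least 2-fold between lines (Csf2rb, Csf2rb2, Jak2, Socs1, Socs3 and Osm), where 4.96% of all protein-coding genes at that level did.

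Of 46 cytokine and growth factor receptor genes, 23 reached 1 CPM in all lines, near the 46.5% of all protein-coding genes. Igf1r, the type 1 insulin-like growth factor receptor, was the highest at 85.1 TPM and gave 684, 508, 763 and 807 CPM. Il18r1 gave 50.3, 38.0, 30.7 and 11.1 CPM, with line 4 lowest. Kit, Il7r, Il10ra and Prlr had no count. Lifr, Osmr and Il6st, chains of the IL-6 receptor family, had 4, 6 and 7 counts.

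Genes of growth and division were present throughout. All 24 S phase genes, all 24 G2 and mitosis genes and all 26 oxidative phosphorylation genes reached 1 CPM in all lines. The share of all protein-coding genes was 46.5%. The replication helicase gene Mcm6 gave 420, 429, 393 and 482 CPM, and Top2a gave 1481, 1356, 1688 and 1880 CPM. The summed level of the mitotic list was 2056, 2022, 2621 and 2708 TPM in lines 1 to 4, and that of the S phase list 1465, 1362, 1265 and 1465 TPM. Line 3 or 4 was the highest line for 21 of the 24 mitotic genes, under each of the 3 library scalings tried. Hmmr, a spindle protein, gave 128, 104, 202 and 216 CPM, and the kinesin Kif23 gave 92.8, 81.4, 168 and 157 CPM. These were the 2 mitotic genes that passed 2-fold. Line 3 was the lowest line for 21 of the 24 S phase genes. By chromosome, it was lowest for 9.03% (chromosome 3) to 43.9% (chromosome 11) of protein-coding genes at 5 CPM. In the oxidative phosphorylation list line 2 was the highest line for 24 of 26 genes, and the summed level was 6642, 7754, 5773 and 6111 TPM. The share of all genes that were highest in line 2, 3 or 4 is not given here. Atp5b, the beta subunit of ATP synthase, gave 960, 1348, 793 and 826 CPM. 1 of 24 S phase genes and 1 of 26 oxidative phosphorylation genes reached 2-fold, near the 4.96% of all protein-coding genes at 5 CPM. Whether growth phase at harvest moved with them was not tested.

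Of 22 glycolysis genes, 18 reached 1 CPM in all lines, where 46.5% of all protein-coding genes did. Line 1 was the lowest line for 14 of these 18. By chromosome, it was lowest for 7.08% (chromosome 15) to 33.5% (chromosome 17) of protein-coding genes at 5 CPM. The transporter Slc2a1 gave 48.4, 222, 234 and 164 CPM, hexokinase Hk2 gave 133, 298, 352 and 297 CPM, and the transporter Slc2a3 gave 437, 614, 1126 and 889 CPM. Line 1 was lowest in each. Ankrd37, a gene induced by low oxygen, was also lowest there, with 4.36, 17.9, 47.5 and 18.8 CPM. The later enzymes differed less: Pkm gave 4023, 4060, 4315 and 4149 CPM. Hk3 followed another order, with line 2 lowest (58.6, 20.3, 73.7 and 65.7 CPM). Gapdh stood at 9.27 TPM, far under Pkm at 1702 TPM. Gapdh shares 25.1% of its 50-base words with other genes, so its level here is uncertain. The same holds for the cyclophilin Ppia (25.4 TPM, 17.3% shared) and for cytochrome c, Cycs (3.79 TPM, 26.1% shared).

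Among 13 non-coding RNAs matched, 6 reached 1 CPM, led among the long ones by Malat1 (242, 189, 364 and 295 CPM) and Neat1 (296, 556, 425 and 363 CPM), and the telomerase RNA Terc had no count. Of 10 genes of the sex chromosomes, the 4 X-linked protein-coding genes reached 1 CPM, where 46.5% of all protein-coding genes did. Xist had 42 counts in all, and 3 of the 4 Y-linked genes had none.

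Growth-arrest genes were expressed. Of 18, 16 reached 1 CPM in all lines, where 46.5% of all protein-coding genes did. Trp53 gave 122, 105, 82.4 and 94.5 CPM, and Cdkn1a, the p21 inhibitor, gave 214, 166, 296 and 187 CPM. On chromosome 4 a run of neighbours differed between lines. Mtap (89137122 to 89181081), a methionine salvage enzyme, gave 198, 242, 109 and 84.5 CPM. Cdkn2a (89274471 to 89294653), which encodes p16 and p19ARF, gave 5.40, 5.10, 0.824 and 1.10 CPM. Cdkn2b (89306299 to 89311039), which encodes p15, gave 5.64, 5.15, 1.91 and 2.55 CPM. Lines 1 and 2 held the 2 highest values in all 3 genes, an order seen in the data that no label gives.

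Sequences of annotated starts are shown for 3 genes in which the exons at or near the distal start held few or no counts. RefSeq (GRCm38.p6) lists 2 starts for each. Bases before the start are in lower case and the first 30 transcribed bases in capitals.

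Pik3c2g distal start, chr6:139613822-139614101, plus strand: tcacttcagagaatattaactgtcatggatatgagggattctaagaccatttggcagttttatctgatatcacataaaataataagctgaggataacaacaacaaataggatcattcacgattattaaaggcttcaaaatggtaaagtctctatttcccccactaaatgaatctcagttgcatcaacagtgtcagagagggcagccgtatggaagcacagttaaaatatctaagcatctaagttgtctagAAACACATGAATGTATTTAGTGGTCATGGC
Pik3c2g proximal start, chr6:139841195-139841474, plus strand: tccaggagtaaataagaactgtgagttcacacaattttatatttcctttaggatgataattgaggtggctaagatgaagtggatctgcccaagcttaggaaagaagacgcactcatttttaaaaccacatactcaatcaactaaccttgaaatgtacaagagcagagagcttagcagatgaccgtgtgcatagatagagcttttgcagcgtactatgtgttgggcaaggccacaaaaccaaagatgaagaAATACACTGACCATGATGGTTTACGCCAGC
Mecom distal start, chr3:30509730-30510009, minus strand: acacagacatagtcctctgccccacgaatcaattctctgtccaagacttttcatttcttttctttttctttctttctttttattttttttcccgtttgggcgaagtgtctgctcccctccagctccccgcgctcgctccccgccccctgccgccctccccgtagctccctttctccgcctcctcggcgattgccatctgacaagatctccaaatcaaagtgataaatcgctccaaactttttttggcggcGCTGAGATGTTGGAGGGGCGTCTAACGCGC
Mecom proximal start, chr3:30013175-30013454, minus strand: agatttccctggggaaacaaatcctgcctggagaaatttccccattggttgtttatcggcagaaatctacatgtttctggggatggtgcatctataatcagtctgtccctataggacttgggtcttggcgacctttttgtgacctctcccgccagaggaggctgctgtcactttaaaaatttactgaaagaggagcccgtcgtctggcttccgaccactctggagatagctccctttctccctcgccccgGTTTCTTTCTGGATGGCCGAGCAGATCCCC
Gata2 distal start, chr6:88193641-88193920, plus strand: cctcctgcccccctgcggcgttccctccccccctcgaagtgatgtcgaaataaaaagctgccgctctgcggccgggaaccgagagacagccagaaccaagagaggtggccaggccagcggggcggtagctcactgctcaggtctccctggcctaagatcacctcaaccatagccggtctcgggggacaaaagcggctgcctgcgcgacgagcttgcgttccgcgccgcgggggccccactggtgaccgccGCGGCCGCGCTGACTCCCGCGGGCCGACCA
Gata2 proximal start, chr6:88198414-88198693, plus strand: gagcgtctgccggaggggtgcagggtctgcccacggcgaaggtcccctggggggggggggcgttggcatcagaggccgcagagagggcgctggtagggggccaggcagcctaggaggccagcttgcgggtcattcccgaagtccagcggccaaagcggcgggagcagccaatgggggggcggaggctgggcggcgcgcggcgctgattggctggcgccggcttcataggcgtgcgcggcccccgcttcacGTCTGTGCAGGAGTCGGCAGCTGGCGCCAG

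Pik3c2g, a class II PI3-kinase gene, was picked after its values were seen. Its 30 annotated exon records upstream of the proximal start held 3 counts in all, and its 26 records downstream of it held 11559, 31655, 25691 and 27895 counts in lines 1 to 4. No line had a count at the distal first exon. The exon records overlap, so a read can be counted in more than 1. With overlapping records merged, 19 of 41 exon positions held 99% of the counts.

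Mecom (ENSMUSG00000027684, chromosome 3, 29951296 to 30548008, minus strand) encodes the zinc-finger factor EVI1 and, from the distal start, the longer MDS1-EVI1 protein. It gave 2547, 1890, 3168 and 3042 CPM, or 443 TPM ± 111 (SD, n = 4). The 13 records upstream of the proximal start held 1 count, and the 35 wholly downstream of it held 70600, 36157, 71629 and 56061 counts. The 1 record that spans the start held 35, 13, 125 and 103. The record that begins at the proximal start, 30012542 to 30013204, held 35, 13, 124 and 100, or 0.410 counts per base. The record at 30009763 to 30009897 held 12.9 per base, so the rise in counts lay downstream of the proximal start. With overlapping records merged, the last 15 of 24 positions, from 30009897 on, held 78281 counts and the 9 before them 306. Along the gene the order of the lines changed. In the record at 29993486 to 29993702 the counts were 330, 172, 493 and 450, with line 1 under lines 3 and 4. In the record at 29956306 to 29956489, nearer the 3' end, they were 1570, 331, 732 and 609, with line 1 highest.

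Gata2 had few counts at its distal exon, with 4, 1, 5 and 2 in lines 1 to 4. The proximal start was not a clean edge. The record at 88198334 to 88198401, which ends before the proximal RefSeq start at 88198664, held 59, 51, 72 and 58 counts. The 11 records wholly downstream of that start held 19387, 19858, 21505 and 16211. Line 4 stood out in the record that spans the start, from 88198334 to 88198881, with 214 counts there against 104, 79 and 118 in lines 1 to 3. Over the last record, 88205195 to 88207032, line 4 had the lowest count, with 6655, 7159, 7331 and 5355.

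Short motifs were searched on both strands of these windows. CCAAT, the CCAAT box, was found in the proximal Gata2 window at positions -83 and -45 from the start and in the proximal Mecom window at -207. It occurs in 36.1% of 32851 RefSeq windows of the same length. The TATA box core TATAAA was found in the proximal Pik3c2g window at -215, as it is in 13.1% of all windows. The GATA core AGATAA, which 10.7% of all windows hold, was found in the distal Pik3c2g window at -191. The STAT core TTCNNNGAA, held by 7.83% of all windows, was found in the same window at -246. A match is a run of letters and not a measured site.

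Col5a1, a fibrillar collagen chain, had 694, 1027, 1147 and 1009 CPM, but the counts were not spread over the gene. The last 2 of its 66 exon positions (chromosome 2, 28032591 to 28039514) held 4950, 7124, 8567 and 6983 counts in lines 1 to 4. The 64 positions before them held 17, 20, 30 and 24 counts. Itgb4, an epithelial integrin gene also picked after its values were seen, had 12740 counts over its last 18 positions, from 115992932 on, and 17 over the 23 positions before. The gene totals of Pik3c2g, Col5a1 and Itgb4 thus describe their 3' parts. What starts these reads was not tested. Over 8106 protein-coding genes with enough exons, the 5' part of the gene (the third of exon records nearest the start) held a median of 17.3% of the counts per base. Among the 1000 highest of them, 34 had less than 1% there.

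**Figure D3:**
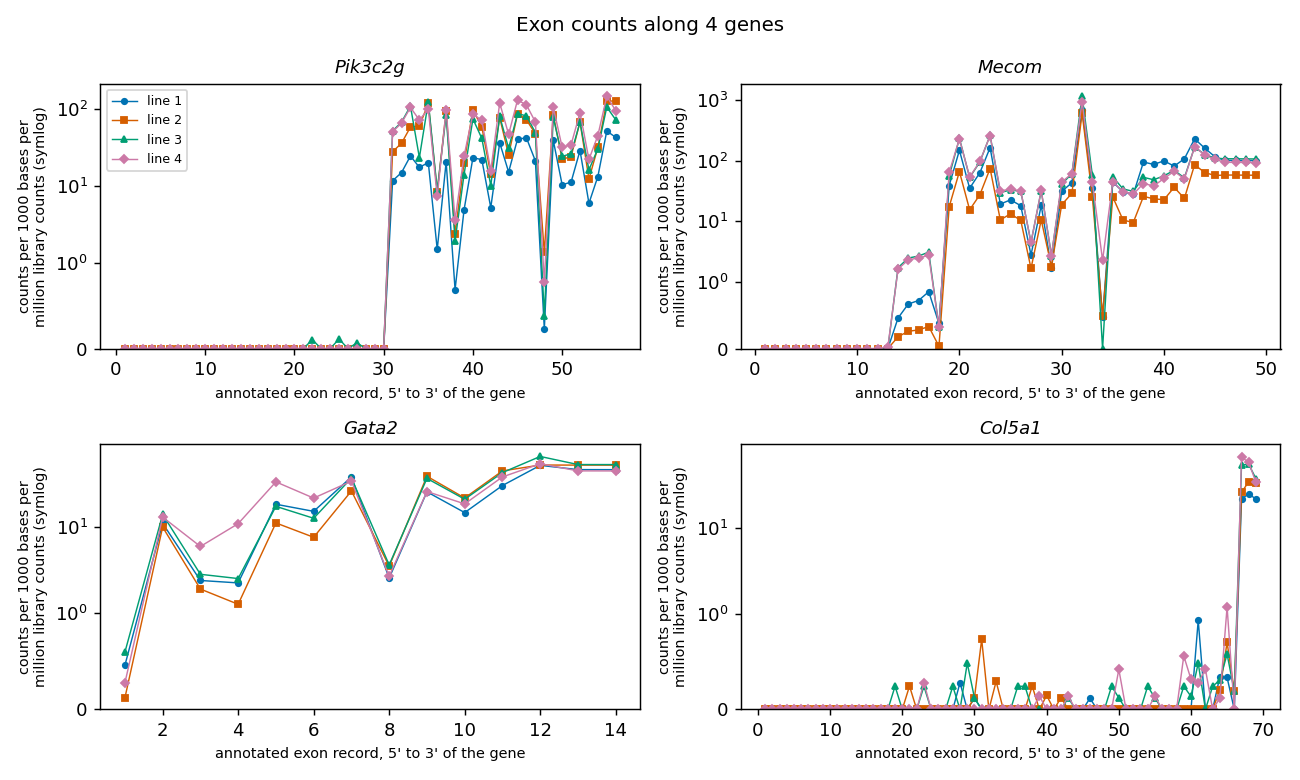
Counts per 1000 bases and per 1e6 library counts for each annotated exon record, from the 5' to the 3' end of 4 genes, 1 curve per vector line (y axis linear up to 1 and logarithmic above). Pik3c2g is at or near 0 over its first 30 records, Mecom over its first 13 and Col5a1 over all but the records of its last 2 positions.

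The spread between lines was then measured over all genes. Of 9392 protein-coding genes at a mean of 5 CPM or more, 2564 kept within 1.2-fold over the 4 lines and 7138 within 1.5-fold. The median highest-to-lowest ratio was 1.30. 466 genes (4.96%) differed at least 2-fold, 72 at least 4-fold and 15 at least 10-fold. Counting error is small at this depth, with a coefficient of variation of 5.50% at 5 CPM in line 4, the shallowest library. The biological coefficient of variation was 0.209 over all genes tested by edgeR. Because each line is 1 library, differences between lines and differences between library preparations cannot be told apart.

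The 5 steadiest genes at 50 CPM or more were Pip4k2c (72.3, 72.8, 72.3 and 72.3 CPM), Pde4a, Usp20, Sart3 and Med15, all within 1.02-fold. Runx3, a haematopoietic factor, was as flat, at 31.3, 31.4, 31.3 and 31 CPM. No member of the cytoskeleton list (23 at 5 CPM) or of the list of elongation factors and chaperones (24 at 5 CPM) reached 2-fold. Of all protein-coding genes at 5 CPM, 4.96% did. For lists of 23 and 24 genes, a count of none is near that share, so it does not set these lists apart.

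Of the 15 genes with the widest range, 12 are described, Prg2 and Ankrd37 above. Gm2a, the activator of ganglioside breakdown, gave 0.389, 0.679, 26.9 and 2.21 CPM and was high in line 3. Its range was 69.1-fold. Parvb, a focal adhesion protein, gave 3.77, 1.14, 19.0 and 23.4 CPM, with line 2 lowest. Line 2 was lowest as well in Myct1 (5.01, 1.14, 9.11 and 16.6 CPM), Aldh1a7 (6.80, 0.493, 2.46 and 11.2 CPM), Podnl1 (8.80, 0.745, 3.18 and 7.66 CPM) and Ecm1 (11.4, 3.09, 8.70 and 36.2 CPM). Zbtb8b was lowest in line 1, with 1.72, 15.9, 21.3 and 12.2 CPM. Fam20a and Akr1c19 ran the other way, with line 1 highest at 15 CPM in each against 5.20 CPM or less in the other lines. Cd177, a neutrophil surface protein, was highest in line 3 (2.22, 8.72, 23.6 and 3.36 CPM). Of 24 adhesion and homing genes, 17 reached 1 CPM in all lines, where 46.5% of all protein-coding genes did. 5 of these 17 differed at least 2-fold, beside 4.96% of all protein-coding genes at 5 CPM. The chemokine receptor Cxcr4 gave 279, 484, 440 and 507 CPM. Among the integrins, Itga4 gave 368, 626, 896 and 841 CPM, Itgb7 gave 50.2, 66.5, 94.1 and 121 CPM, and Itgal gave 11.3, 3.41, 8.60 and 9.13 CPM.

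**Figure D4:**
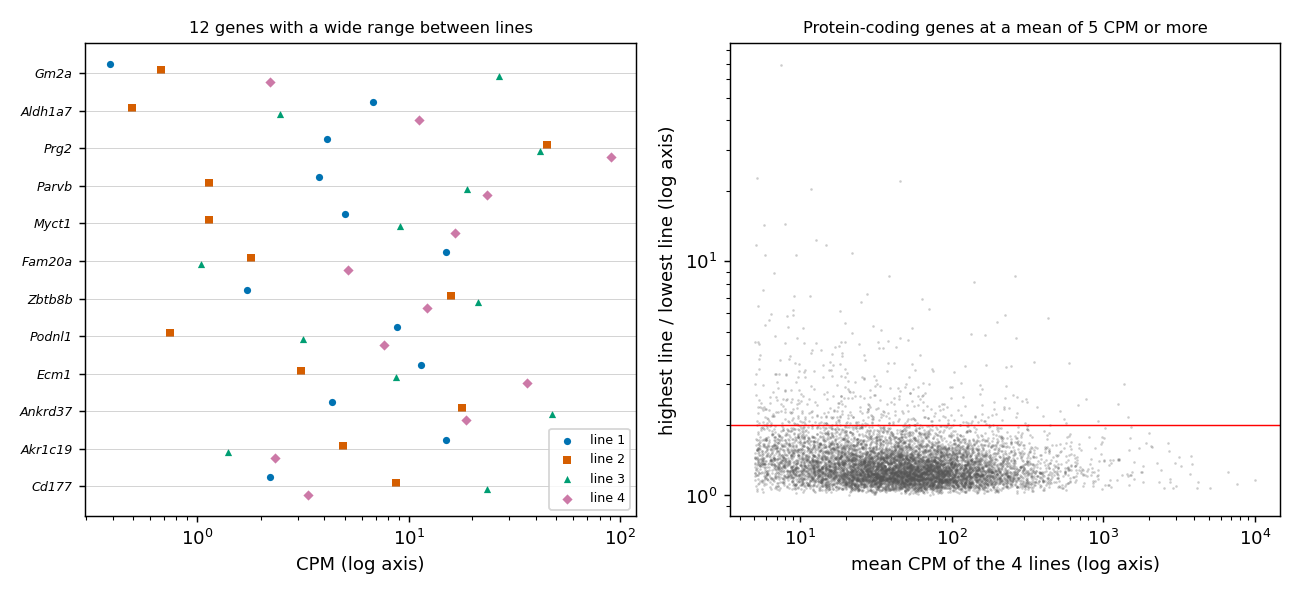
Left, CPM (log axis) of 12 of the 15 protein-coding genes with the widest range, 1 point per vector line; right, the highest-to-lowest ratio of protein-coding genes at a mean of 5 CPM or more against its mean CPM (both log axes), with a line at 2-fold. Gm2a heads the left panel with a 69.1-fold range and line 3 high, and most genes of the right panel lie well under the line, around a median ratio of 1.30.

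Line 2 stood apart most often. It was the lowest line in 222 of the 466 genes and was 2-fold or more below all the other lines in 59 genes. The same count was 24 for line 1, 6 for line 4 and 1 for line 3. Line 4 was the highest line in 166 of the 466. The commonest order, with line 4 highest and line 2 lowest, covered 128 genes, among them Parvb and Myct1. As a root mean square difference of log2 CPM, lines 3 and 4 were the closest pair at 0.21. The other 5 pairs lay between 0.36 (lines 1 and 4) and 0.48 (lines 2 and 4). As a check for duplicate libraries, the counts of each pair were set against counting noise alone, and the smallest chi-square over its degrees of freedom was 34.8, for lines 3 and 4. Leaving out line 2 lowered the number of genes at 2-fold, over all gene classes, from 587 (5.61% of 10465) to 267.

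1 chromosome stood apart. For each gene at 5 CPM the difference of each line from the mean of the 4 lines was taken on the log2 scale. Over 367 protein-coding genes of chromosome 15 the medians were 0.13, -0.18, -0.06 and 0.11 in lines 1 to 4. On the 19 other chromosomes (the autosomes and X) the medians lay between -0.08 and 0.07. The range between lines was 0.31 for chromosome 15 and at most 0.13 for any other. The median gene of chromosome 15 was 1.24-fold higher in line 1 than in line 2. Line 2 was the lowest line for 56.9% of the chromosome 15 genes and for 31.1% of the genes elsewhere. The offset ran along the whole chromosome: in 4 consecutive blocks of 91 or 92 genes the line 2 median was -0.18, -0.11, -0.18 and -0.20. At 2-fold the excess was small, with 7.90% of chromosome 15 genes against 4.84% of the others. Single other chromosomes ran from 2.69% (chromosome 18) to 7.62% (chromosome 19), so chromosome 15 stood little above the highest of them. This comparison was made after the values were seen, and no copy number was measured.

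**Figure D5:**
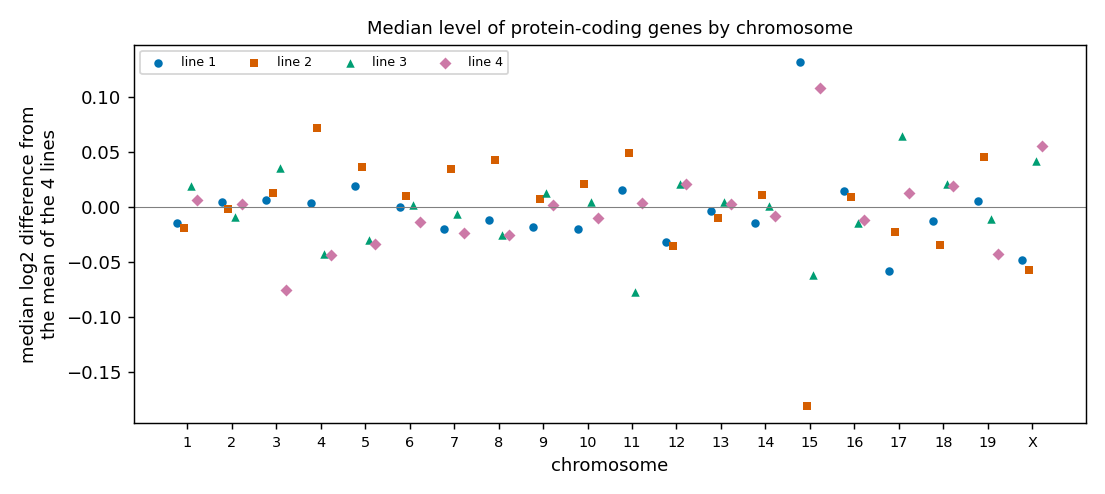
Median over protein-coding genes, for each chromosome and vector line, of the log2 difference from the mean of the 4 lines. On chromosome 15 the medians run from -0.18 in line 2 to 0.13 in line 1, while on the other chromosomes they stay between -0.08 and 0.07.

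Several genes named above lie on chromosome 15. Myc (387, 225, 344 and 402 CPM), Ly6e (4536, 3078, 3549 and 4128 CPM) and the poly(A)-binding protein gene Pabpc1 (2166, 1512, 2107 and 2456 CPM) had line 2 lowest, as the chromosome did. Csf2rb, Csf2rb2 and Lgals1 (1102, 1335, 756 and 753 CPM) did not, and were highest in line 2. Parvb lies there as well, with a range far beyond that of the chromosome.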

How the data were processed

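RNA sequencing of 12 Ba/F3 lines was deposited as whole-number counts per gene and per exon. The submitters' processing notes name Subread, featureCounts and the mm10 build. Neither their versions nor the strand setting nor the handling of multi-mapping reads is given in the sources used here. Only the 4 MSCV columns of each table were used. Of 55471 gene identifiers, 55230 were named from GENCODE release 21 (GRCm38); where a symbol had several identifiers the one with most counts was taken.

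From the deposited counts, CPM was computed with TMM factors from edgeR 4.0.16 (R 4.3.3), and TPM with the length of the union of a gene's exons. Expressed means at least 1 CPM in all 4 lines. Line-to-line ratios were taken for genes at a mean of at least 5 CPM. The biological coefficient of variation came from edgeR's common dispersion with an intercept only. No test between groups was made, as there is 1 group. The spread between lines may be technical in part. The labels give no date or batch. The share of 50-base words that a gene has in common with others was counted in the GENCODE transcripts. Exon records are those of the deposited exon table, whose counts sum to 18.3% of the gene counts, and overlapping records are counted separately. The dispersion estimate and the 2-fold count were tested on simulated data.

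Alternatives were DESeq2 1.42.0 size factors and dispersions, no TMM factors, other level floors, prior counts of 0.5 against 2, longest-transcript lengths and leaving out each line. Named genes were the 4 markers, the 20 highest by TPM, the 15 with the widest range at 5 CPM or more, the 5 with the narrowest at 50 CPM or more, and members of 23 lists; genes outside this rule are said to be so. The members and lists were chosen with earlier results of these data known. A few genes of the lists are counted in the totals but not reported here.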

Additional observations from a re-analysis of the deposited data

Results flagged for a closer look

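Of 135 named genes at a mean of 1 CPM or more, 10 had 1 line whose gap to its nearest neighbour took up most of the range of the 4 lines, beyond the 95% point of Dixon's test. By chance this marks about 1 group in 20. Of all 12694 genes at that mean level, 749 (5.90%) did so, and 10 of 135 is 7.41%. Some of the named genes were chosen for a wide or narrow range or after their values were seen, so the count is a description. The share of the range taken by the gap is given for each.

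In line 2, Jak2 was high (0.847; 150, 392, 187 and 171 CPM), as were the chymase Cma1 (0.903; 2.12, 18.8, 2.11 and 3.73 CPM), the kinase Pim2 (0.931; 13.8, 17.6, 13.7 and 14.0 CPM) and the beta globin Hbb-bs (0.848; 0.489, 11.4, 0.667 and 2.15 CPM). Hbb-bs shares 53.2% of its 50-base words with other genes, and Gapdh 25.1%. Itga2b was low in line 2 (0.855; 871, 522, 881 and 931 CPM).

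In line 3, Gm2a (0.931; 0.389, 0.679, 26.9 and 2.21 CPM) and Gapdh (0.888; 16.7, 15.7, 25.4 and 16.5 CPM) were high. The olfactory receptor Olfr1251 was high in line 1 (0.873; 19.7, 16.5, 16.3 and 16.7 CPM). Pip4k2c, high in line 2 (0.836), and Pde4a, low in line 3 (0.854), are among the 5 steadiest genes, so the gaps there lie within a range of 1.02-fold or less.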

How the results depend on the processing

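No paired analysis was possible because the report concerns 1 group, in which each replicate number occurs once, and no difference between groups was tested. The number of genes at 2-fold between lines depends on the level required. It was 587 at a mean of 5 CPM, 1193 at 1 CPM, 288 at 20 CPM and 6284 with a single count in every line, settings that change which genes are tested. Leaving out 1 line gave 267 (without line 2) to 511 genes (without line 3). The biological coefficient of variation was 0.209 and moved to 0.235 with no filter on low counts, 0.181 at a mean of 5 CPM, 0.171 as the square root of DESeq2's median dispersion, and between 0.177 (without line 2) and 0.226 (without line 3) when 1 line was left out. Under no TMM factors it stayed at 0.209. The chromosome 15 difference between lines 1 and 2 was 0.31 on the log2 scale, and 0.32, 0.33 and 0.32 with a prior count of 0.5, without TMM factors and at a mean of 20 CPM; these settings were chosen after seeing the data. The highest 20 genes by TPM shared 17 members with those by longest-transcript length. Of the 15 genes with the widest range, 7, 8, 11 and 11 stayed among the widest 15 without line 1, 2, 3 and 4. The cause of the other shifts was not tested.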
